A study of Rattus norvegicus with 12 samples.

Results

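The protein genes of the cytosolic ribosome were followed in rat liver under a high-fat diet with or without didymin, a flavonoid glycoside of citrus fruit. Members were chosen by name: every listed gene whose symbol begins with Rpl or Rps and a digit or with Rplp0 to Rplp2, and Rpsa, without the Rps6 kinases and without names marked as pseudogenes. The rule found 88 of 16558 genes. Of these, 71 are canonical subunit genes, with 29 of the small subunit, 40 of the large subunit and 2 of the stalk (Rplp0 and Rplp1), and 6 of the 77 canonical names were not analysed here. The other 17 names are paralogs and like-copies, such as Rps27l or Rps18l1, together with Rps19bp1, which meets the rule by spelling only and codes for a protein that binds Rps19.

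Liver RNA of Sprague Dawley rats was sequenced in 12 libraries, 3 in each of 4 groups. The normal group (libraries N.1, N.2 and N.3) received saline. The model group (M.5, M.6 and M2.1) had a high-fat diet for 8 weeks to induce fatty liver, and arms D (D.1, D.4, D.7) and G (G.1, G.3, G.4) had the high-fat diet with didymin. The arms are doses of didymin, but no label pairs the letters with the low or the high dose, so none is assigned. Which rat each library came from is not labelled, and the p-values therefore reflect the spread among these libraries alone. In whole liver, fewer cells of a type and less RNA per cell cannot be told apart.

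Ribosomal proteins are needed in equal numbers, since each ribosome holds a single copy of nearly all of them, and surplus protein is degraded. Their mRNAs begin with a short stretch of C and T, the 5′ terminal oligopyrimidine (TOP) motif, through which LARP1 and mTOR signalling set their translation and stability. Much of this control acts on translation, which mRNA counts do not measure.

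The start site of members is shown first, because the TOP stretch is a known feature of this family's mRNAs. RefSeq promoter windows of the rat build GRCr8 were found for 70 members, in 71 windows, since Rps27a has a pair of starts. Each line runs 5′ to 3′ on the gene strand, from 45 bases before to 25 after the annotated start. Capitals mark a run of 6 or more C and T that begins with C, searched from 10 bases before to 15 after the start. The first set holds members with such a run, among them Rpl10 near the high end of the levels per length and Rps18 near the low end. They lie at chr12:46718366-46718435 (- strand) for Rplp0, chrX:157205805-157205874 (+ strand) for Rpl10, chr19:68062469-68062538 (+ strand) for Rpl13, chr20:4933700-4933769 (+ strand) for Rps18, chr16:96472-96541 (+ strand) for Rps24, chr2:177964582-177964651 (- strand) for Rps27, chr7:10068091-10068160 (- strand) for Rps15.
Rplp0: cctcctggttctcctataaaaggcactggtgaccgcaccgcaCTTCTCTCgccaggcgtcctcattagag
Rpl10: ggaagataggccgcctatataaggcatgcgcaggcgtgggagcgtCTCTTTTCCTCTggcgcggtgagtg
Rpl13: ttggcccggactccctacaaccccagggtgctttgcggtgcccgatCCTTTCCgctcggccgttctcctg
Rps18: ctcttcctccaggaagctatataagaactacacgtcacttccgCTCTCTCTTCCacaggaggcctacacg
Rps24: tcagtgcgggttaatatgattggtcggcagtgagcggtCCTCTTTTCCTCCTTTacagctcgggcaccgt
Rps27: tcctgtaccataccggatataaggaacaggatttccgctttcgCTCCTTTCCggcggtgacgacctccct
Rps15: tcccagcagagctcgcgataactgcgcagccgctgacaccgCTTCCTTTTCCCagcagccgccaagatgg

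The second set has no such run lying wholly within that window, and holds members named in the group comparisons. In Rpl39 and Rps16 a run of C and T begins at the downstream edge of the window and continues past it. It was therefore not counted. Rpl36 has a run further upstream than the window. They lie at chr7:113507966-113508035 (- strand) for Rpl3, chr9:1533735-1533804 (+ strand) for Rpl36, chrX:121195872-121195941 (- strand) for Rpl39, chr1:92770613-92770682 (+ strand) for Rps16, chr9:21695673-21695742 (+ strand) for Rpl7l1.
Rpl3: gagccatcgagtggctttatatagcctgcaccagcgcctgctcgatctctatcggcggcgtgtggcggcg
Rpl36: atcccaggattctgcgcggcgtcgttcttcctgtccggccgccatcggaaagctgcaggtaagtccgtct
Rpl39: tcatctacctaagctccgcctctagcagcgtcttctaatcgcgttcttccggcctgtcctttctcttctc
Rps16: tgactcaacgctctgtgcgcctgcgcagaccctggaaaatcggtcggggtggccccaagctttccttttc
Rpl7l1: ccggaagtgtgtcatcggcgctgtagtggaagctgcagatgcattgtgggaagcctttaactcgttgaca

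Of the 71 windows, 40 (56.3%) held the run within the bases searched, against 17.1% of all 33469 RefSeq rat promoters. On the opposite strand the shares were 9.86% of members and 20.6% of all. The search window was widened after the counts of a first rule had been seen. That rule asked for the first C of the run within 10 bases of the start, passed over runs that begin further upstream, and gave 49.3% of members and 16.6% of all promoters. Over the whole 300 bases, CTTCCG, the core of ETS factor sites, stood on either strand in 54.9% of member windows and 16.6% of all. GGGCGG, the core of Sp1 sites, stood on either strand in 54.9% and 33.1%, and TATAA in 25.4% and 26.2%. These are matches of letters, may overlap each other, and show neither binding nor a cause. Whether the annotated starts are those used in liver was not tested. A window without the run therefore does not show that the mRNA lacks a TOP stretch.

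The members differed far more in level from each other than between groups. Per kilobase of gene length, the mean over the 12 libraries ran from 1270 CPM per kilobase (CPM being read counts scaled to the TMM-adjusted nuclear library size) for Rpl41, the smallest ribosomal protein, to 1.21 for Rpl7a, a ratio of 1052. Next to Rpl41 stood Rps27a, which is made as a fusion with ubiquitin, at 806 and Rpl10, a protein that joins the large subunit last, at 789. The median of the 81 members that passed the filter on low counts was 158. At the low end lay Rps9 at 1.72 and Rps18 at 2.51. Below 30 CPM per kilobase lay 20 of the 81, of which 16 are canonical, and the nearest values on each side of that limit were 27.2 and 47.4.

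**Figure D1:**
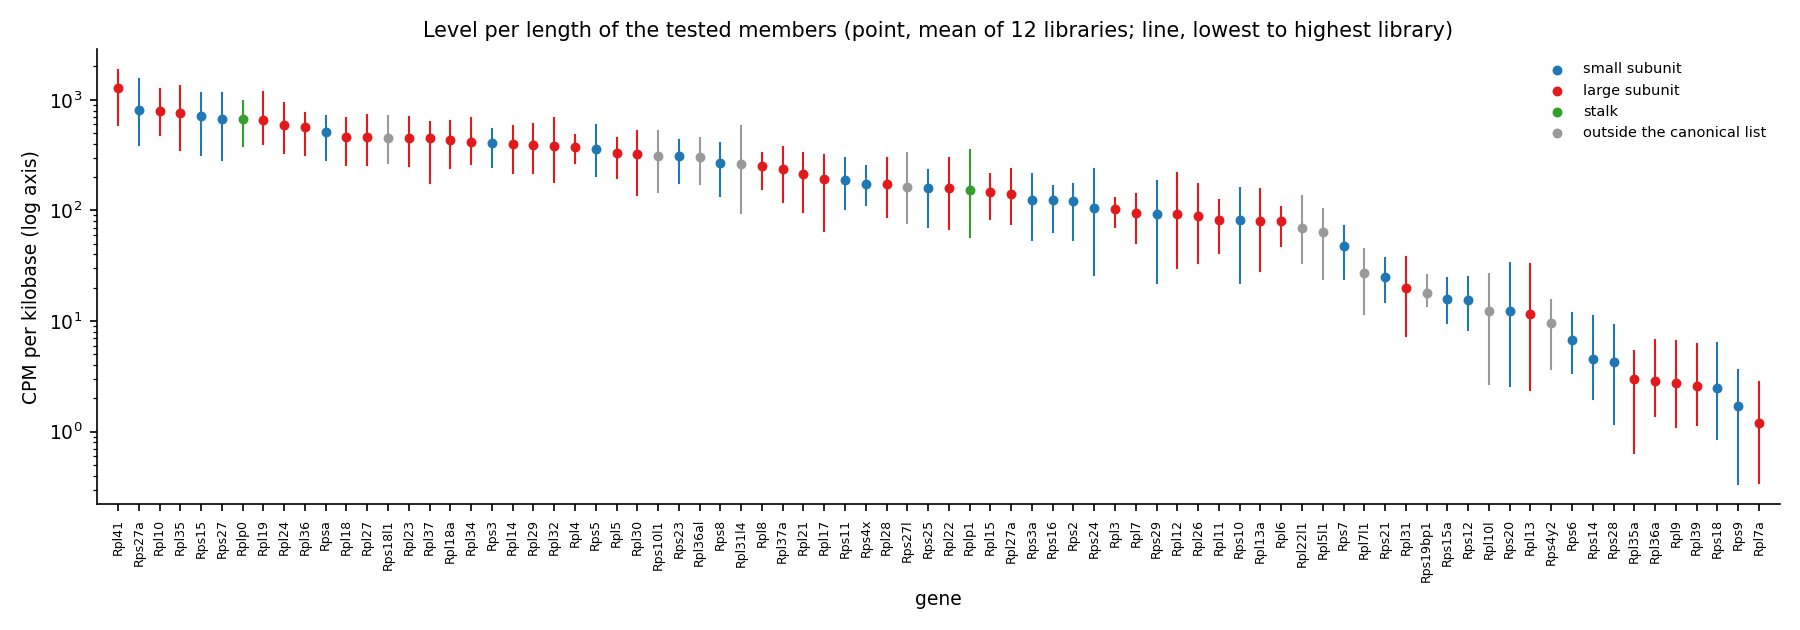
Level of 80 of the 81 tested members in CPM per kilobase on a log axis, with points for the mean of 12 libraries, lines from the lowest to the highest library, and colours for the subunit. Rpl41 stands highest at 1270 and Rpl7a lowest at 1.21, and canonical genes appear at both ends.

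For several low canonical genes a like-named copy stood high. Rps18l1 had 454 CPM per kilobase where Rps18 had 2.51, and Rpl36al had 305 where Rpl36a had 2.89. The lengths used differ too, with 542 bases for Rps18l1 and 2490 for Rps18, so the contrast per kilobase exceeds that in counts. Over the 12 libraries these 2 genes held 34271 and 788 counts. Rpl31l4 stood at 265 against 19.9 for Rpl31, and Rps10l1 at 310 against 82.6 for Rps10. The order was the other way for Rpl5 at 330 over Rpl5l1 at 63.4, for Rps27 at 673 over Rps27l at 163, and for Rpl10 at 789 over Rpl10l at 12.4. Ribosomal protein genes have many near-identical copies in mammalian genomes, and how reads were divided among them is not given in the sources used here. The counts of single members are therefore uncertain, and a low value does not show that a gene is silent.

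The 7 members that did not pass the filter were Rps19, Rpl3l, Rpl39l, Rpl22l2, Rpl30l1, Rpl35al1 and Rps15al2. Rps19, a small-subunit protein whose loss causes Diamond-Blackfan anaemia, ranged from 0 to 0.588 CPM. Whether its reads were assigned elsewhere was not tested.

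Members took 0.825%, 0.996% and 1.49% of nuclear counts in N.1, N.2 and N.3. In the model group the shares were 1.86% in M.5, 2.06% in M.6 and 0.816% in M2.1. On nuclear counts the model group thus held both the highest and the lowest of the 12. Arm D had 1.95%, 1.32% and 1.21% in D.1, D.4 and D.7, and arm G had 1.30%, 1.78% and 1.42% in G.1, G.3 and G.4. The group means were 1.10% ± 0.347 (SD, n = 3) in normal, 1.58% ± 0.667 in model, 1.49% ± 0.399 in arm D and 1.4997% ± 0.247 in arm G. All 4 groups overlapped.

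The member share of nuclear counts went with the mitochondrial share of the library in part. Mitochondrial-genome genes took 3.85% to 61.0% of all counts, with 44.1% in M.6 and 61.0% in G.3. N.1 had more of them than N.2 (4.63% against 3.85%) but a lower member share, as had D.7 beside D.4 (5.88% against 5.62%). M.5 stood above M2.1, and G.4 above G.1, in both shares. In each of the 4 groups, the library with the highest mitochondrial share (N.3, M.6, D.1 and G.3) also had the highest member share of nuclear counts. The same 4 libraries had the highest erythroid marker sums of their groups, over the 3 of 6 listed genes that the tables hold and after TMM scaling. These were 524 CPM in N.3 (168.5 and 424 in the others), 1504 in M.6 (296 and 641), 1538 in D.1 (446 and 642) and 1761 in G.3 (642 and 752). Of the erythroid genes, Hbb was higher in N.1 (174 CPM) than in N.3 (139). T and NK cell markers, over 9 genes, ran from 11.4 to 53.4 CPM and were highest in N.3, D.1 and G.3 and, in the model, in M.5 (31.2) ahead of M.6 (28.6). B and plasma cell markers, over 6 genes, went otherwise. Their sums were highest in N.1 (20.1 CPM), M.5 (32.3), D.4 (42.4) and G.4 (50.1) of their groups. None of these lists had a gene at 0 throughout a group. After TMM scaling, which sets libraries level on the bulk of their genes, the summed level of members was highest in M.5 (19830 CPM) instead of M.6 (16013) in the model group, and in G.4 (15966) instead of G.3 (11845) in arm G. M.6 and G.3 also had the lowest hepatocyte marker sums of their groups, 89401 and 53485 CPM over 8 genes, against medians of 179740 and 197050. All 8 hepatocyte markers were detected in every library. The summed level of 10 Kupffer cell and macrophage markers, none at 0, ran from 339 to 745 CPM in the model, 678 to 2056 in arm D, 460 to 1013 in arm G and 691 to 942 in normal. The part of mitochondrial share and cell makeup in the members' levels was not tested.

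**Figure D2:**
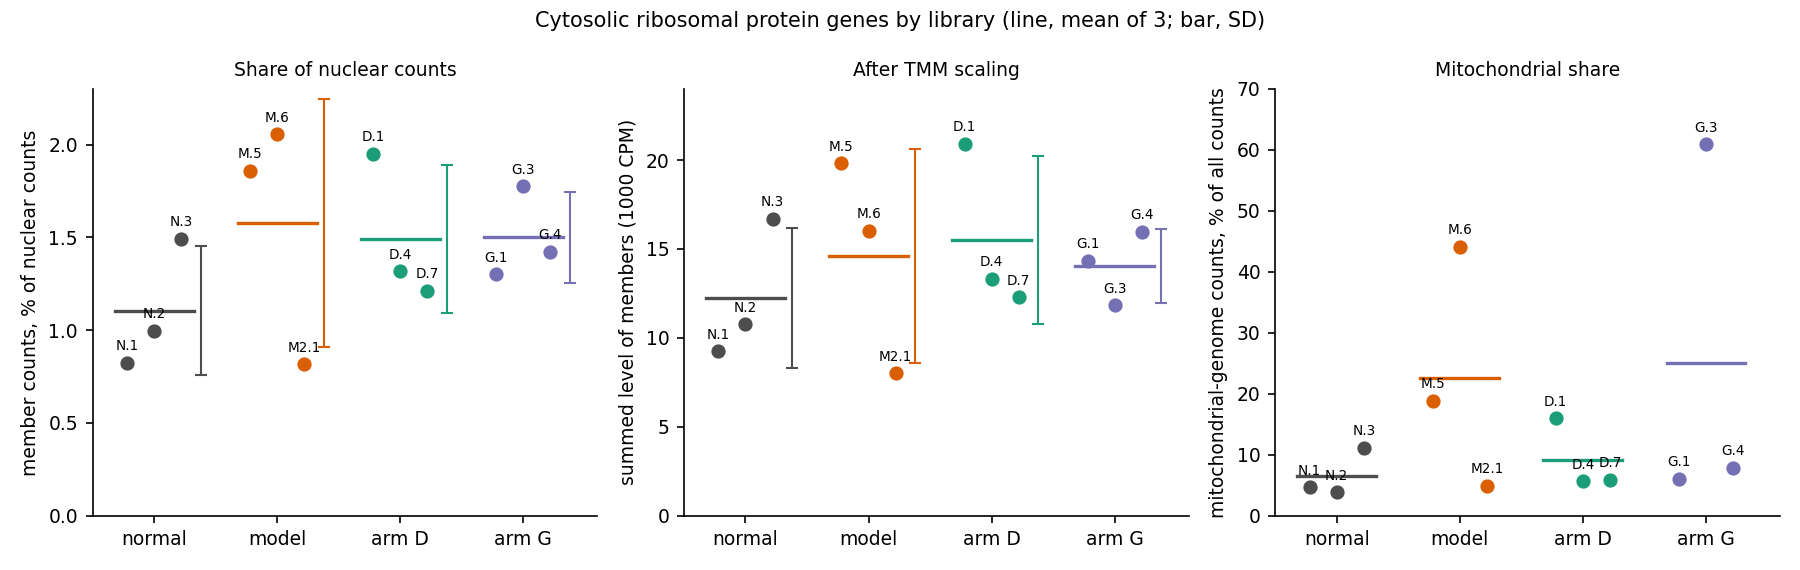
Members' share of nuclear counts, their summed CPM after TMM scaling, and the mitochondrial share of all counts, with 1 point per library, a line for the mean of 3 and bars for the SD in the first and second panels. M2.1 is the lowest library in the first and second panels, and M.6 and G.3 are the highest in the third.

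The members varied together from library to library, whatever the group. Of the variance of their log2 CPM over the 12 libraries, the first principal component held 65.5%, against 43.7% for all tested genes, and 79 of 81 members had the same sign on it. The exceptions were Rpl7l1, a nucleolar relative of Rpl7 that acts in ribosome assembly, and Rps2. The variance shares come from sets of unlike size, and the count of genes with the same sign was not taken over all genes. M2.1 (−8.10) and N.1 (−5.85) stood at the low end of this component, and M.5 (5.98), D.1 (5.42) and M.6 (4.79) at the high end. M2.1 was the lowest library for 48 of the 81 members, and D.1 was the highest for 36. Such counts of extreme libraries were not taken over all genes either.

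A second component of 17.3% set G.3 (−5.85) and M.6 (−2.88) apart from the rest. Rpl13, Rps18 and Rps20 led the members that were high in those libraries. Rpl13, of the large subunit, had 3.37, 4.44 and 6.72 CPM in N.1 to N.3, 9.60, 18.6 and 1.53 in M.5, M.6 and M2.1, 4.40, 5.14 and 2.398 in D.1, D.4 and D.7, and 5.53, 21.0 and 6.03 in G.1, G.3 and G.4. Its highest library was 13.7 times its lowest, the widest range of the tested members, and G.3 and M.6 alone stood above 10. Rps24, of the small subunit, had 23.1, 39.5 and 91.0 CPM in the normal libraries, 154, 183 and 20.4 in the model, 110, 48.9 and 39.9 in arm D and 50.9, 153 and 59.7 in arm G. M.5, M.6 and G.3 were high and M2.1 was the lowest of all.

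Other members went the other way in these libraries. Rps2 had 114, 122 and 135 CPM in the normal libraries, 105, 52.2 and 123 in M.5, M.6 and M2.1, 154, 99.4 and 101 in arm D, and 142, 48.1 and 96.3 in arm G. M.6 and G.3 were its lowest libraries. Rpl7l1 had 33.2, 30.4 and 14.3 CPM in the normal libraries, 8.52, 10.2 and 29.8 in the model, 11.1, 21.3 and 23.1 in arm D, and 24.3, 8.77 and 27.0 in arm G. It was low where the mitochondrial share was high, in N.3, M.5, M.6, D.1 and G.3. The median range of a member over the 12 libraries was 3.37 times, from 1.80 for Rpl4 to 13.7 for Rpl13.

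**Figure D3:**
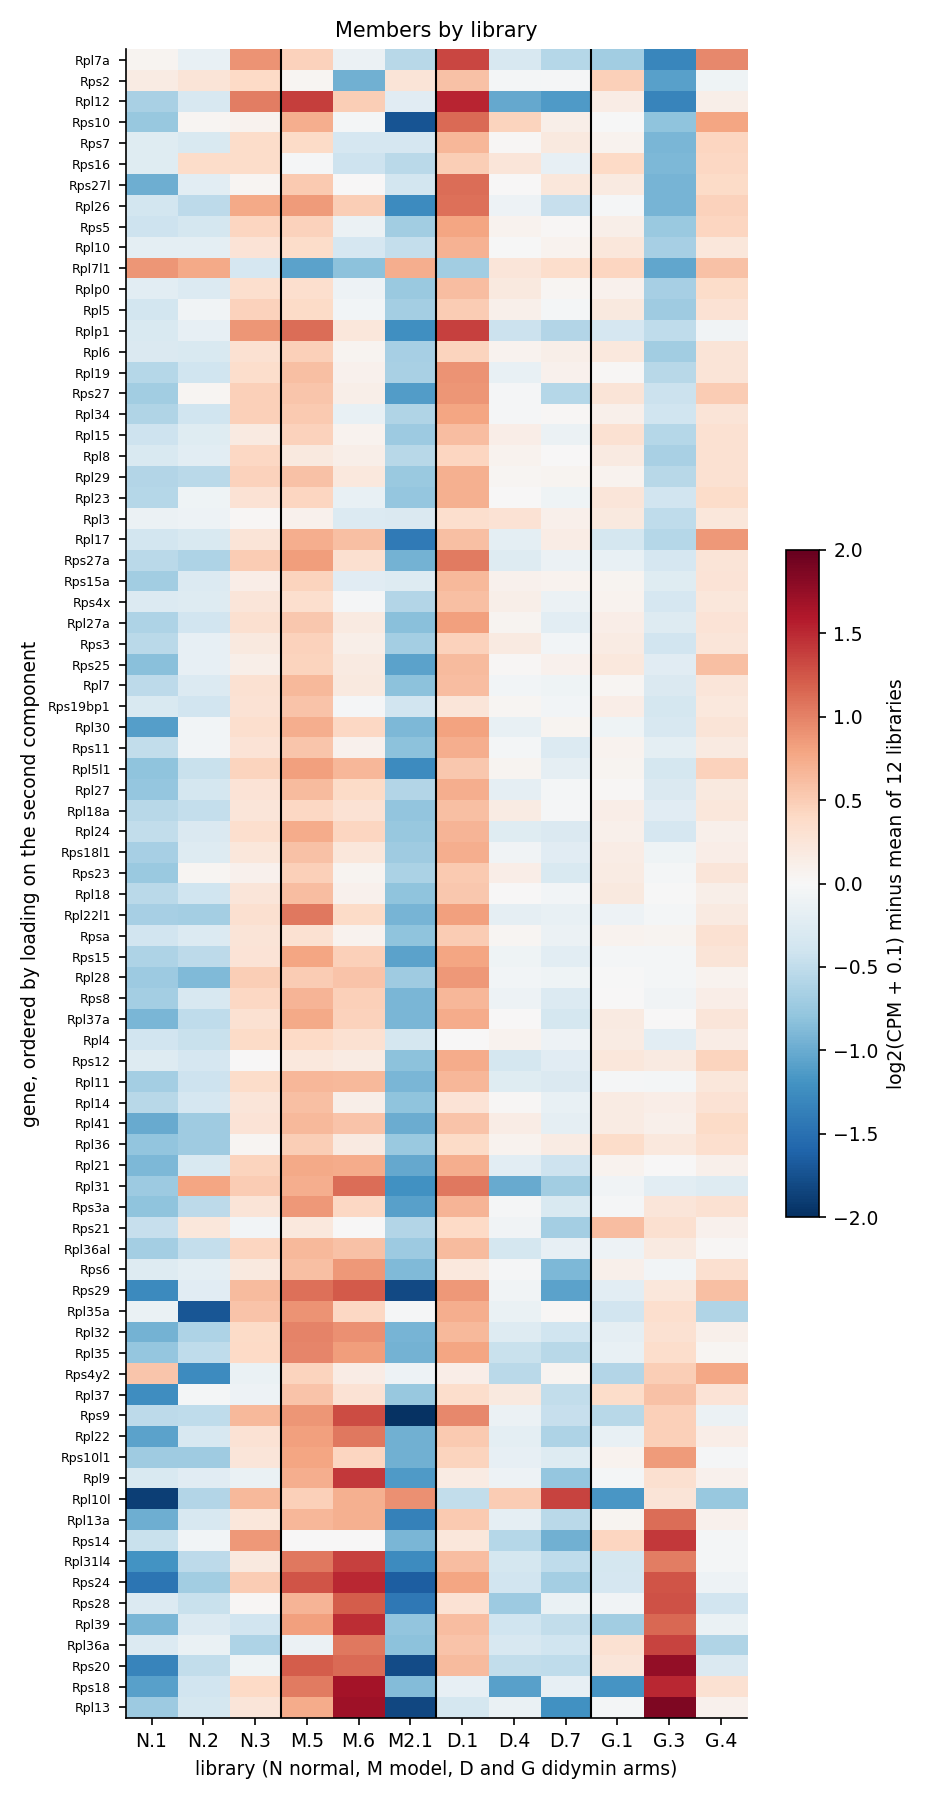
log2 CPM of 80 of the 81 tested members in the 12 libraries, each gene minus its own mean, in order of the loading on the second component and with lines between groups. Most rows are blue in M2.1 and N.1 and red in M.5 and D.1, and the bottom rows, down to Rpl13, are red in M.6 and G.3.

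Which members differed between high-fat and normal liver was the first question of the design. No member passed the test: edgeR's quasi-likelihood test called 0 of 81 at an adjusted p under 0.05, and 0% of all 12486 genes tested were called. At an unadjusted p under 0.05, edgeR gave 0 members, against 4.93% of all genes, and DESeq2 and limma-voom gave 1 each, against 6.62% and 4.33% of all genes. After adjustment both called 0 members, against 0.336% of all genes in DESeq2 and 0% in limma-voom. The median log2 fold change of the members was 0.32, against 0.02 over all genes, and 67 of 81 had a value above 0, against 51.8% of all genes. The large subunit had a median of 0.37 with 34 of 40 above 0, and the small subunit 0.21 with 22 of 28. No member separated the groups completely, where 5.19% of all genes were higher and 5.45% lower in every model library.

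That median turned on single libraries of both groups. Without M.5 it was 0.04, without N.1 0.12 and without N.3 0.58. Without M2.1 it was 0.67, against 0.07 over all genes, and 76 of 81 members were above 0, against 53.6% of all genes. In that setting 26 of 81 members stood at an unadjusted p under 0.05 in edgeR, where 20.2% of all genes did, so the count over all genes was higher in that setting as well. With the mitochondrial share as a covariate, entered as the centred log2 ratio of mitochondrial to nuclear counts, the members' median was 0.06. Without the TMM factors it was 0.57, but the median of all genes was then 0.28, so that about the same distance from all genes remained. In no setting did a member pass the threshold.

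Rpl39, a short protein of the exit tunnel, had the smallest p of the members above 0. It had 2.43, 3.85 and 3.54 CPM in N.1 to N.3 and 8.32, 13.1 and 2.66 in M.5, M.6 and M2.1, a log2 difference of 1.29 (SE 0.61, adjusted p = 0.87 in edgeR). M2.1 lay among the normal libraries, so the groups overlapped. Rpl31l4 had a difference of 1.15 (SE 0.61), where Rpl31 had 0.17 (SE 0.62), and Rpl9 had 0.90 (SE 0.52). Below 0, Rps16, a small-subunit protein, had 180, 277 and 276 CPM in normal and 211, 160 and 146 in model, a log2 difference of −0.50 (SE 0.35, adjusted p = 0.87 in edgeR). Its groups overlapped too. Rpl7l1 stood at −0.68 (SE 0.54) and Rps2 at −0.41 (SE 0.39).

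Didymin arm D was set against the model next. edgeR called 0 of 81 members, with 0% of all genes called, and 0 stood at an unadjusted p under 0.05, against 6.26% of all genes. DESeq2 and limma-voom also gave 0 at that level, against 7.97% and 5.49% of all genes, and called 0 after adjustment, against 0.112% and 0%. The members' median was −0.01, against −0.02 for all genes, and 40 of 81 were above 0, against 48.6%. Without M2.1 the median was −0.33, without D.1 −0.27, without M.5 0.33, without M.6 0.07, without D.4 0.11 and without D.7 0.16, so its sign depended on which library was left out. With the mitochondrial share as a covariate it was 0.22 with 68 of 81 above 0, where the median of all genes was 0.007. The share of all genes above 0 was not taken in that setting. Without M.6 and G.3 the members' median was 0.10, and in limma-voom 0.08. Over canonical members with a mean of 100 or more counts it was 0.10. Without the TMM factors it was −0.16, as was the median of all genes.

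Rpl3, a large-subunit protein near the peptidyl transferase centre, was the only member with no overlap, higher in arm D, where 6.42% of all genes were, and 0 were lower throughout, against 6.13%. It had 451, 437 and 382 CPM in D.1, D.4 and D.7 and 380, 295 and 292 in M.5, M.6 and M2.1, a log2 difference of 0.39 (SE 0.26, adjusted p = 0.82 in edgeR). The gap between D.7 and M.5 was narrow. Rps18 had the smallest p below 0, with 4.40, 2.28 and 4.42 CPM in arm D and 10.3, 15.8 and 2.66 in the model (log2 difference −1.37, SE 0.71, adjusted p = 0.81 in edgeR). Those groups overlapped at M2.1. Its like-named copy Rps18l1, with means of 272 CPM in arm D and 258 in the model, stood at 0.08 (SE 0.37). Rpl13 stood at −1.30 (SE 0.74) and Rps10, a protein at the mRNA entry, at 0.67 (SE 0.55).

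For arm G against the model, edgeR called 0 of 81 members, with 0% of all genes called. No member had an unadjusted p under 0.05, against 2.33% of all genes, while limma-voom gave 1, against 1.95%, and DESeq2 0, against 3.23%. After adjustment both called 0 members, against 0.04% of all genes in DESeq2 and 0% in limma-voom. The median was −0.06, against 0.01 for all genes, with 35 of 81 above 0 and 51.2% of all genes. It was −0.38 without M2.1, −0.16 without G.4, −0.03 without M.6, −0.01 without G.3 and 0.21 without M.5. Its sign also turned with the mitochondrial covariate (0.02), without M.6 and G.3 together (0.08) and in limma-voom (0.02), and without a filter on low counts it was −0.10. Arms D and G share the model libraries, so their values are given side by side only.

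Rpl10l, a paralog of Rpl10, was lower in every arm G library, as were 2.09% of all genes, while 0 members were higher in every one, against 2.67%. It had 2.92, 7.95 and 3.90 CPM in G.1, G.3 and G.4 and 9.30, 10.96 and 12.6 in M.5, M.6 and M2.1 (log2 difference −1.17, SE 0.62, adjusted p = 0.9999 in edgeR). Rpl10 itself, with means of 578 CPM in arm G and 546 in the model, stood at 0.08 (SE 0.35). Rps14, a small-subunit protein, had 2.53, 5.07 and 1.78 CPM in arm G and 1.86, 1.85 and 0.930 in the model (log2 difference 1.01, SE 0.57). These values rest on few reads, with 32, 37 and 21 in arm G and 19, 17 and 14 in the model. G.3 was the high library, and G.4 lay inside the model range.

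The arms were also compared with each other. edgeR called 0 of 81 members, with 0% of all genes called, and none had an unadjusted p under 0.05, against 3.33% of all genes. DESeq2 gave 1 and limma-voom 0 at that level, against 4.93% and 1.62% of all genes, and both called 0 members after adjustment, against 0.04% and 0%. The median of arm G minus arm D was −0.12, against −0.02 for all genes, and 28 of 81 were above 0, against 47.8%. It was 0.19 without D.1, −0.22 without D.4, −0.28 without D.7, −0.04 without G.3 and −0.24 without G.4. With the mitochondrial covariate it was −0.21 with 15 of 81 above 0, where the median of all genes was −0.009. The share of all genes above 0 was not taken there. Without M.6 and G.3 together the members' median was −0.05. Without the TMM factors it was 0.03, where the median of all genes was 0.13. Rpl13 was higher in every arm G library (log2 difference 1.43, SE 0.75, adjusted p = 0.997 in edgeR), as were 3.9% of all genes (0 members were lower throughout, against 3.41%), with G.1 at 5.53 just above D.4 at 5.14 CPM and G.3 at 21.0.

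Against the normal group, edgeR called 0 of 81 members in either arm, with 0% of all genes called in both. Rpl36, a large-subunit protein, was the only member under an unadjusted p of 0.05, in arm G, where 6.5% of all genes were. For arm D none was, against 6.47% of all genes. DESeq2 and limma-voom gave 1 member each at that level in arm G, against 8.82% and 4.18% of all genes, and 0 in arm D, against 7.86% and 5.98%. After adjustment DESeq2 called 0 members in both, against 0.416% of all genes in arm G and 0.665% in arm D, and limma-voom 0, against 0%. Rpl36 had 101, 105 and 177 CPM in N.1 to N.3, 225, 183 and 193 in D.1, D.4 and D.7, and 223, 199 and 219 in G.1, G.3 and G.4. Both arms stood above all normal libraries, and M.5 (244), M.6 (196) and M2.1 (104) ran across that range. The log2 difference was 0.74 in arm G (SE 0.32, adjusted p = 0.73 in edgeR) and 0.65 in arm D (SE 0.32, adjusted p = 0.82). The members' medians were 0.32 in arm D and 0.24 in arm G. In arm D 74 of 81 were above 0 and in arm G 69, against 49.6% and 51.4% of all genes. Without overlap, 3 members were higher in arm D (Rpl3, Rpl36 and Rps10), against 9.07% of all genes, and 5 in arm G, among them Rpl36, Rpl37, Rpl9 and Rps12, against 5.82%. Rpl9 rested on few reads, with 48, 36 and 49 in G.1, G.3 and G.4 and 40, 45 and 39 in N.1 to N.3. No member was lower throughout, against 7.58% and 4.88% of all genes. Both arms share the normal libraries. Without N.3 the medians were 0.63 and 0.51, and without N.1 they were 0.14 and 0.04. That of arm D was 0.05 without D.1 and 0.49 without D.7, and that of arm G was 0.15 without N.2 and 0.11 without G.4. With the mitochondrial covariate arm D had 0.22 and arm G 0.04. Without the TMM factors arm G had 0.47, where all genes had 0.28.

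**Figure D4:**
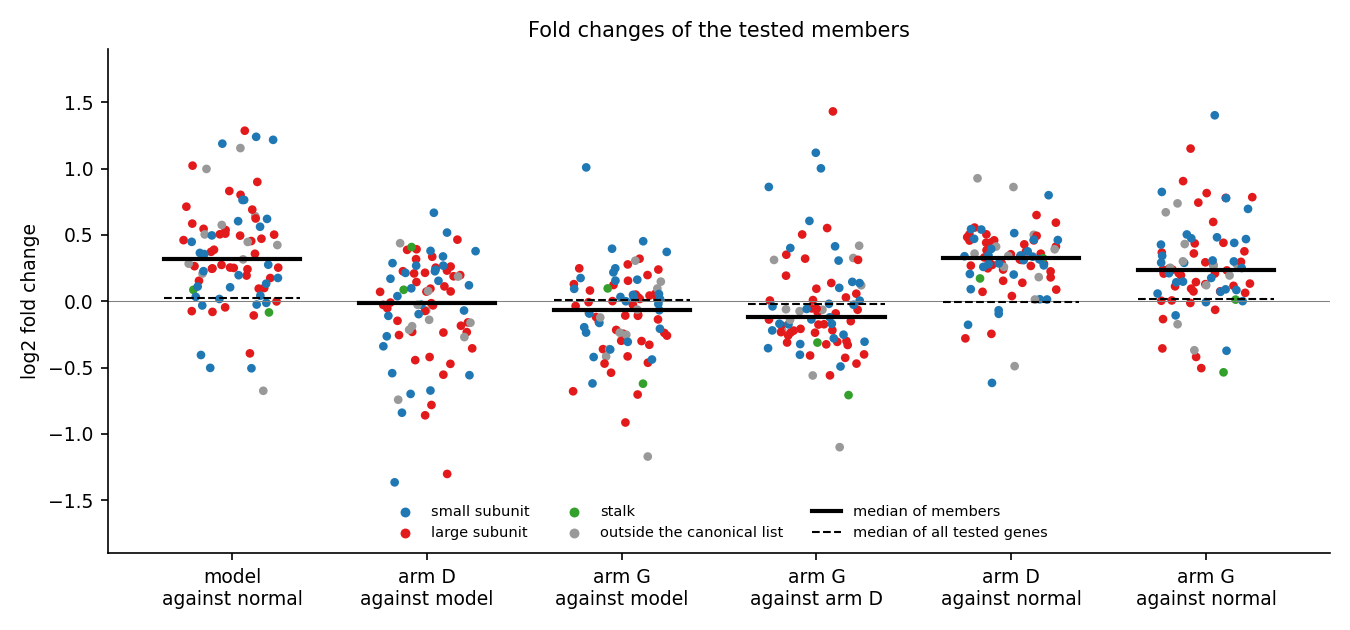
log2 fold change of the 81 tested members in 6 comparisons, with colours for the subunit, a thick line for the members' median and a dashed line for the median of all 12486 genes. The members' median lies at 0.32 for model against normal and near 0 for arm D against model, and no point passed the threshold.

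Members with roles outside the ribosome, or used as references, were looked at singly. Rplp0, the stalk protein often used as a reference gene, had 606, 582 and 884 CPM in normal, 883, 652 and 419 in model, 1069, 802 and 722 in arm D and 740, 441 and 907 in arm G. Its range of 2.55 times had D.1 at the top and M2.1 at the bottom. Rpl5 and Rpl11, which bind MDM2 when ribosome assembly fails, had log2 differences of −0.11 (SE 0.36) and 0.47 (SE 0.43) between model and normal. Rpsa, the laminin-binding small-subunit protein, stood at 0.03 (SE 0.33).

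**Figure D5:**
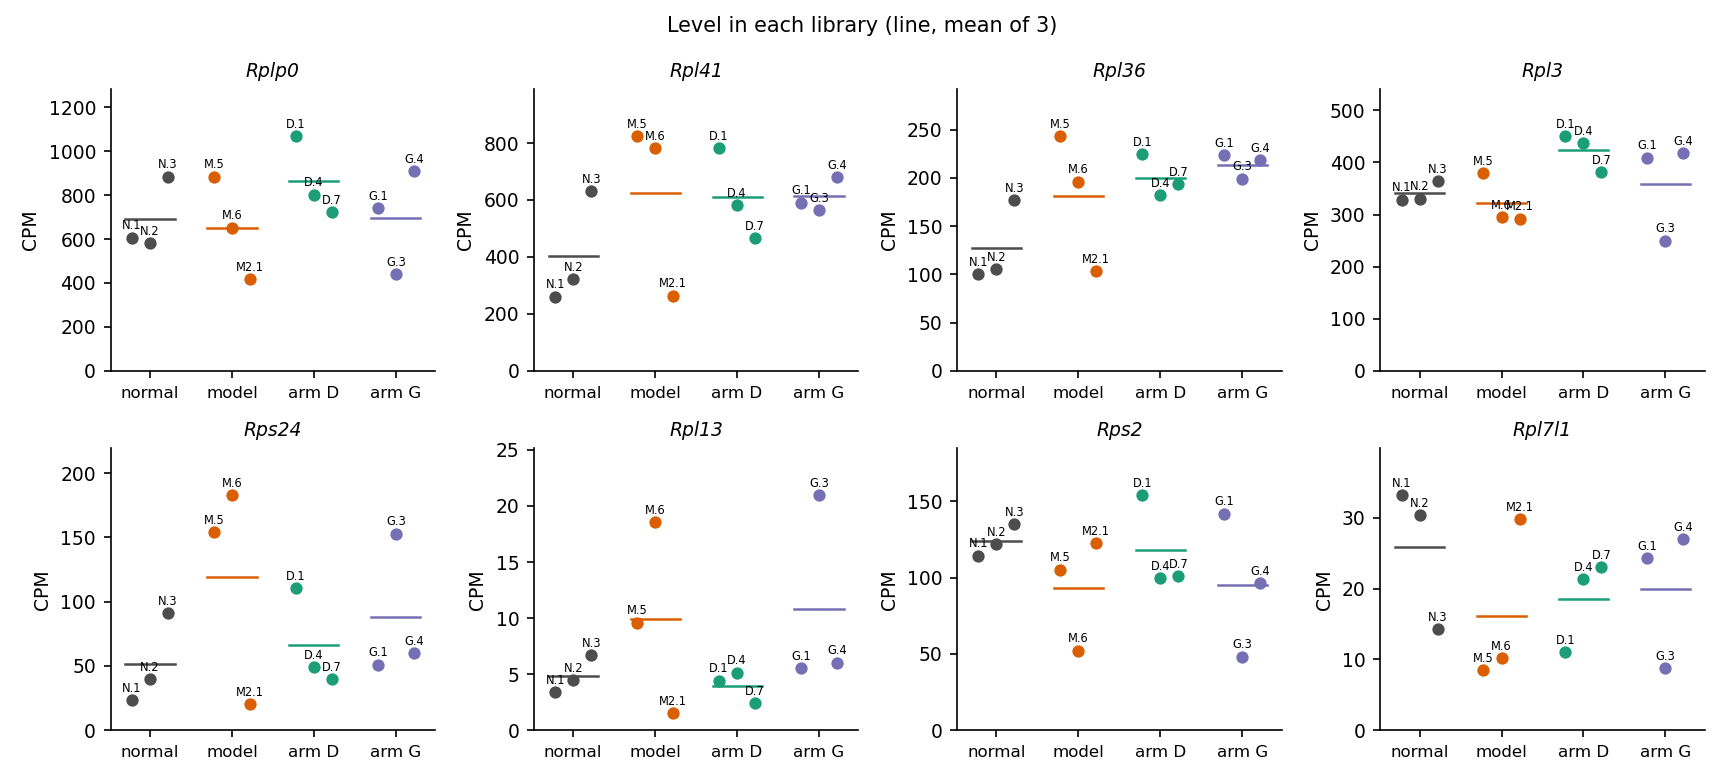
CPM of 8 members in each library, with a line for the mean of 3. Rpl36 in both arms lies above all 3 normal libraries, Rpl13 is high in M.6 and G.3, and Rpl7l1 is low in N.3, M.5, M.6, D.1 and G.3.

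The other genes of the pathway held no call either. Of 29 tested ribosome biogenesis genes, edgeR called 0 in each of the 6 comparisons, where 0% of all genes were called. Between model and normal 21 were above 0, against 51.8% of all genes, with a median of 0.27. In edgeR 4 stood at an unadjusted p under 0.05, against 4.93% of all genes. Among them was Gnl3, a nucleolar GTP-binding protein (log2 difference 0.86, SE 0.33). Gnl3 had 41.0, 43.5 and 41.5 CPM in normal and 79.9, 113 and 37.1 in model, so M2.1 again lay with the normal libraries. Between arm D and model 23 of the 29 were below 0 with a median of −0.41, where 48.6% of all genes were above 0. Among 70 tested mitochondrial ribosomal protein genes, which serve a separate ribosome, 51 were above 0 between model and normal, against 51.8% of all genes. Their median was 0.18, and none was called, against 0% of all genes. Of 16 other TOP mRNAs and translation factors, 8 were above 0 and 8 below in that comparison.

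In the authors' deposited tables, 0 of the 88 members passed an adjusted p of 0.05 in any of the 3 comparisons. Those tables called few genes at all, with 0.0436% in D against M, 0.00627% in G against M and 0.333% in N against M. The smallest p-values there were 0.0273 for Rps18 in D against M, 0.0208 for Rpl10l in G against M and 0.0306 for Rpl39 in N against M.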

How the data were processed

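The members, lists and tests were chosen with earlier results of these data known. The authors deposited 3 tables with raw read counts and FPKM per gene and library, per the file headers, and with the authors' own log2 fold changes and p-values, raw and adjusted, which enter only the sentences that name those tables. Per the submitters' processing notes the tools include DESeq2 and the build mm9, a mouse build. How reads were aligned and counted, on which annotation and with which strand setting, is not given in the sources used here. Another 33 columns of values per sample were not used. FPKM served only to recover each gene's length, equal in the libraries read for it.

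Tables were joined on gene name. Columns were matched to groups, not to single samples. Total counts ran from 12469914 to 15521648 per library and nuclear counts from 4869054 to 14761817. The 13 mitochondrial-genome genes were left out. edgeR 4.0.16 fitted all 12 libraries in 1 quasi-likelihood model (filterByExpr, TMM, Benjamini-Hochberg over 12486 genes) and the script was tested on simulated data. Each SE was derived from the edgeR test, as the absolute log2 difference divided by the square root of the test's F statistic. DESeq2 1.42.0 and limma 3.58.1 (voom), other scalings and filters, a mitochondrial covariate and leaving out libraries were alternatives. The promoter run was searched in a window widened after the first counts were seen, and both shares are given. Where none passed, the 3 members per direction with the smallest p were named, with a fixed list, the paralogs, and the extremes of level and spread. The text gives those that its statements rest on, and 1 tested member, counted in all totals, is not reported by name here.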

Additional observations from a re-analysis of the deposited data

How the results depend on the processing

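No member passed an adjusted p of 0.05 in any alternative run, whether with edgeR, DESeq2 or limma-voom. With the mitochondrial genome left in the denominator, the members' share of all counts was 1.02% in normal and 1.14% in model. It was 1.34% in arm D and 1.08% in arm G. The shares of nuclear counts were 1.10%, 1.58%, 1.49% and 1.4997% in the same order of groups. On all counts the lowest library was G.3 at 0.693% and the highest D.1 at 1.64%. Leaving out each library in turn moved the log2 difference of Rplp1 between arm G and arm D from −1.03 to 0.21 and that of Rpl31 between arm D and normal from −1.18 to 0.09. Without D.4 the second was 0.0934. These are differences that did not pass the threshold before either, and the cause of the changes was not tested. Medians over members that turned sign stand beside each comparison, with the larger of the other shifts. No paired analysis was possible because no label pairs libraries of different groups. The labels only number the replicates within each group. The column names do not carry the replicate numbers of the labels outside the normal group, so a replicate number could not be fitted either. With 3 libraries a group and a common biological coefficient of variation of 0.408, a missed threshold does not show equal levels, and many low canonical genes rest on few counts, with 15 below a mean of 100 per library.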
